A study of Mus musculus with 12 samples.

Results

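The set described here holds 48 genes for chromatin regulators, chosen by symbol from the 53599 genes of the count table: 12 Polycomb genes, 6 genes of DNA methylation and its removal, 7 histone methyltransferases and demethylases, 12 subunits of the SWI/SNF remodelling complexes, and 11 genes for histone acetylation and the NuRD complex. Their RNA was measured in 12 libraries of cells sorted from mouse liver, 3 in each of 4 groups. All mice were labelled WT, had been given AAV8-TBG-Cre, in which a hepatocyte promoter drives Cre to mark hepatocytes and what they become (the labels sort on EGFP and name no reporter allele), and had from 1 week later eaten a diet with 0.1% DDC for 8 weeks, which injures bile ducts. EGFP+ cells were sorted as early (Cd24- Epcam-), intermediate (Cd24+ Epcam-) and full (Cd24+ Epcam+), and EGFP- Epcam+ cells as BEC, the biliary epithelial cells. Every group therefore carried the virus and the diet, and no group without injury was analysed here. The labels give no age, and do not say whether the 3 replicates of a group came from separate mice, so p-values measure the spread between these samples, which may be technical.

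Chromatin regulators set which genes can be read. Polycomb repressive complex 2 (PRC2) places a repressive methyl mark on histone H3, and Polycomb repressive complex 1 (PRC1) reads that mark through its CBX subunits and adds ubiquitin to histone H2A. DNA methyltransferases silence CpG sites and TET enzymes begin the removal of the mark, SWI/SNF complexes move nucleosomes with the energy of ATP, and acetyltransferases and deacetylases open and close chromatin. Hepatocytes and biliary cells descend from a common embryonic progenitor, and injury with DDC is a standard way to make hepatocytes take on biliary genes.

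Total counts ran from 15112893 to 19731887 per library. Marker sums followed the labels of early and BEC. The summed CPM (counts scaled to library size, adjusted between libraries by TMM factors) of 10 hepatocyte genes was between 97830 and 102683 in early. It was 15014 to 19538 in intermediate, 3366 to 4402 in full and 2066 to 2705 in BEC. For 10 biliary genes the sum was 996 to 1960 in early and 14789 to 18051 in BEC. Intermediate (9403 to 12267) and full (11876 to 15075) overlapped in this biliary sum. The biliary list holds Epcam, on which the cells were sorted, so part of this match was set by the sort. Of these biliary genes, Muc1 was at 0 in all early libraries. Markers of other cells moved as well. The sum of 9 macrophage genes was 64.0 to 174 CPM in early, 95.4 to 140 in intermediate, 192 to 229 in full and 494 to 523 in BEC. For 8 endothelial genes it was 15.5 to 31.9, 7.42 to 19.98, 3.84 to 6.17 and 4.62 to 9.64 CPM, and for 9 stellate cell and fibroblast genes 111 to 322, 64.6 to 188, 48.6 to 84.4 and 62.3 to 107 CPM. Sums for B cells, T and NK cells and neutrophils stayed at or under 1.28 CPM, and that of 6 erythroid genes reached 33.3 CPM in early. Of these 6, 4 had at most 3 counts in each early library, with Hba-a1, Hba-a2 and Hbb-bt at 0. Only 1 of the 6 passed the filter on low counts. The mitochondrial share of counts was 11.4% in early replicate 2 and between 2.20% and 6.001% in the other libraries. The part of these differences in the results below was not tested. In bulk RNA, fewer cells of a type and less RNA per cell cannot be told apart.

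All 48 members passed the filter on low counts, Tet1 and Hdac9 only through the groups in which they were higher, so the counts without both are given as well. From early to intermediate, 34 of the 48 rose (33 of 46 without Tet1 and Hdac9) and 0 fell at an adjusted p under 0.05 (edgeR's quasi-likelihood test, Benjamini-Hochberg adjustment over 16210 genes). Of all genes tested, 28.7% were called higher and 25.7% lower at this step. The members' median log2 fold change was 0.47 against 0.06 over all genes. At an unadjusted p under 0.05, 1 member was lower, the PRC1 gene Cbx8, and it was called lower by DESeq2 and with a block for replicate number. Some calls at this step rested on single libraries: that of Arid1a was lost without early replicate 1 or intermediate replicate 2 or 3, Ezh1 without early replicate 3 or intermediate replicate 1, Kmt2d without early replicate 1 or intermediate replicate 3, and Tet2 without early replicate 3 or intermediate replicate 2 or 3. The scaling of the early libraries moved these counts: when libraries were scaled by their totals alone, the median of all genes moved from 0.06 to 0.72, 85.6% of all calls were higher in intermediate instead of 52.8%, and 46 members were called higher and 0 lower.

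From intermediate to full, 14 members rose (12 without Tet1 and Hdac9) and 0 fell, where 20.8% of all genes were called higher and 19.8% lower. The members' median was 0.23 against 0.01 over all genes. At an unadjusted p under 0.05, 25 members were higher and 0 lower, and DESeq2 called 22 higher and 0 lower. The count of 14 was 21 with the replicate block, 27 with upper-quartile factors and 37 with total counts only (where the median of all genes was 0.21, 44.5% of all genes were called and 72.6% of those calls were higher), and 7 without full replicate 2, 9 without full replicate 3 and 9 without intermediate replicate 2. The first and second steps share the intermediate libraries, so their values are given side by side and not as an overlap.

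Between BEC and full, 2 members were higher in BEC (Hdac1 and Hdac9, or 1 without Hdac9) and 4 lower (Cbx2, Rnf2, Kdm1a and Smarcd1), where 10.7% of all genes were called higher and 10.6% lower. The members' median was 0.03 against 0.00 over all genes. The 42 members not called had log2 fold changes between -0.17 and 0.51. The replicate block added Cbx6 and Kmt2c to the higher members, which made 4. The count of 4 lower members was 1 without full replicate 1, 2 or 3 or BEC replicate 3, and 0 without BEC replicate 2. The count of higher members was 5 with only the 6 libraries compared in the fit, 4 without early replicate 1 and 1 without full replicate 3. Of 8 macrophage markers tested, 3 were also called higher in BEC than in full and 5 were not called. The part of macrophages in these counts was not tested.

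**Figure D1:**
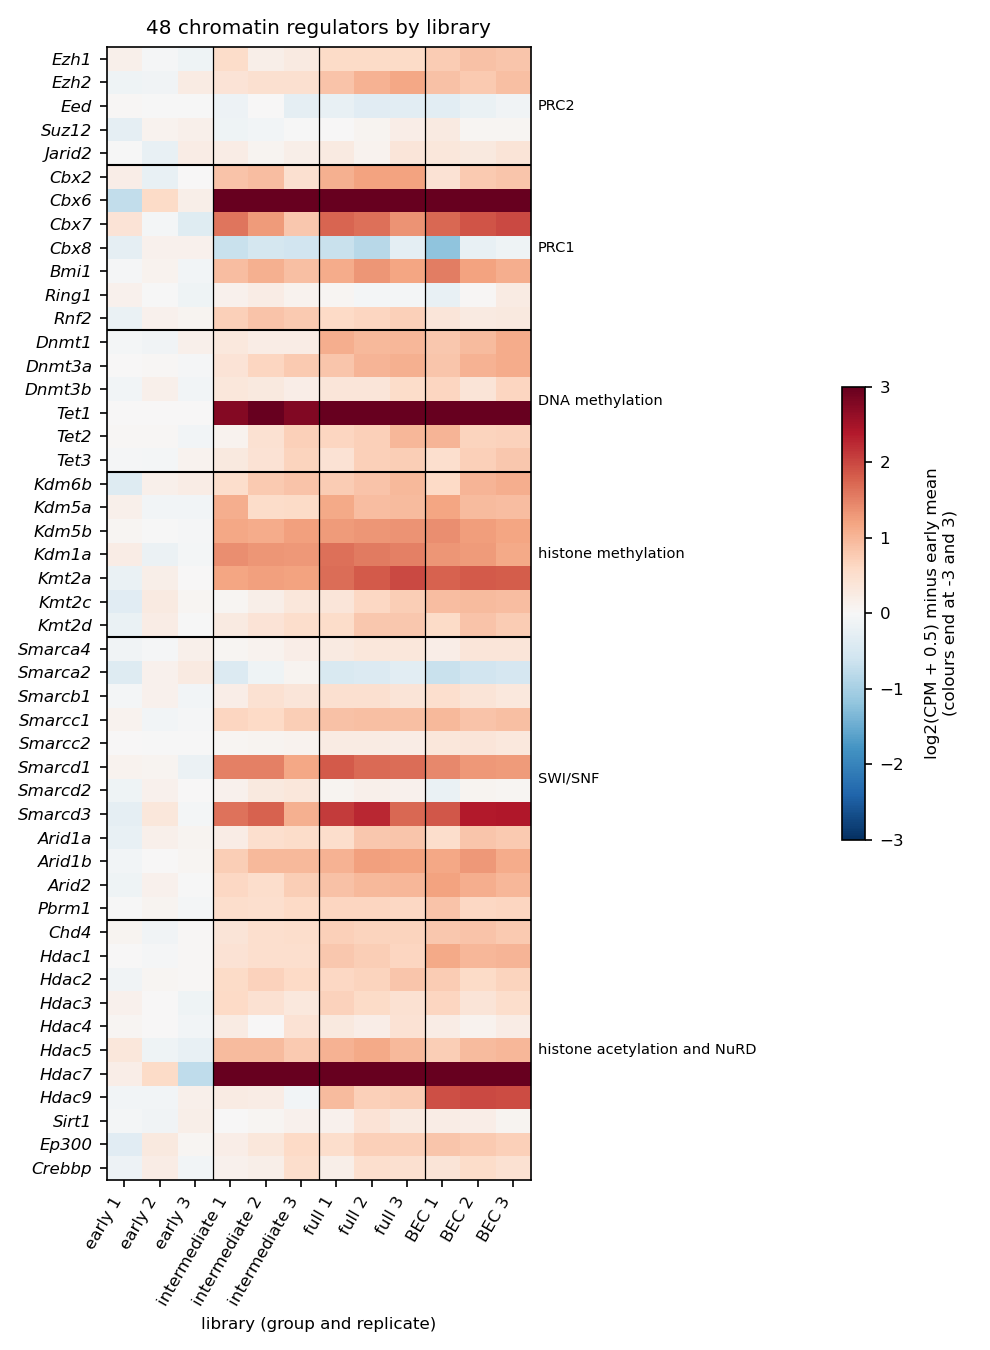
Level of each of the 48 members (rows, grouped by role) in each of the 12 libraries (columns), as log2(CPM + 0.5) minus the mean of the 3 early libraries. Most rows turn red at intermediate. Eed, Cbx8 and Smarca2 are blue in the full libraries on this TMM scale, and with total counts only their log2 fold changes from early to full are above 0 (0.57, 0.24 and 0.44).

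**Figure D2:**
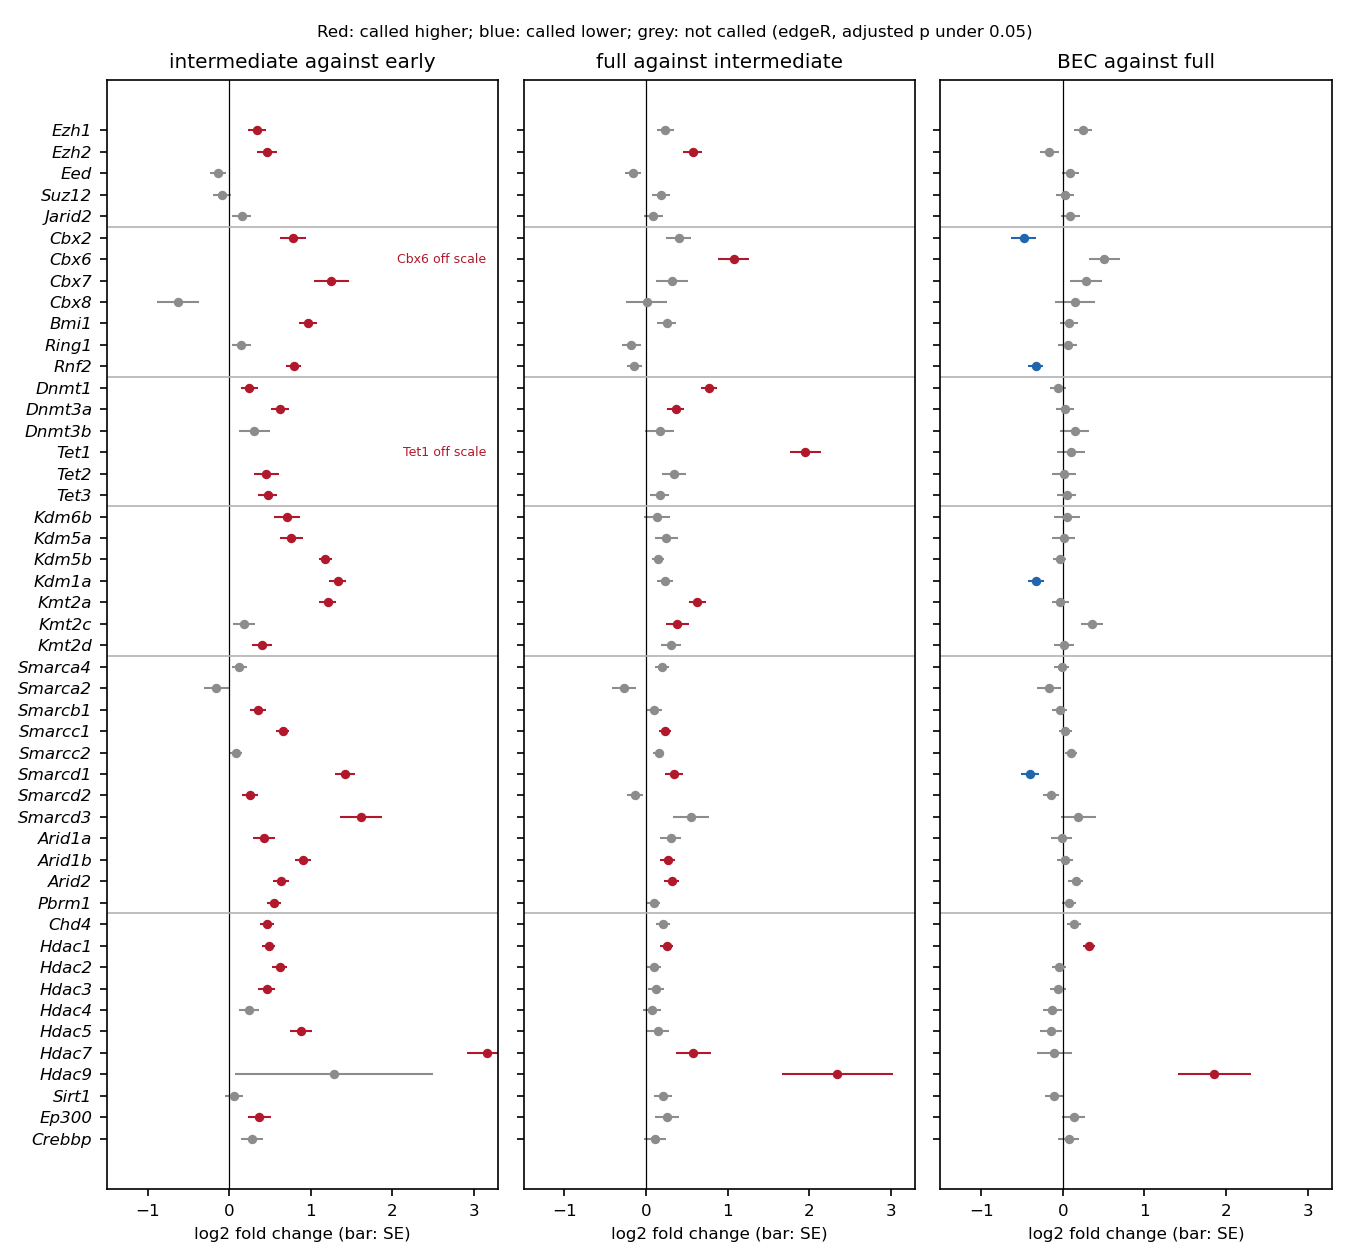
Log2 fold change of each member at the 3 comparisons of neighbouring groups, with the standard error as a bar and TMM scaling. Points called higher are red, called lower blue and not called grey, and 34, 14 and 2 members are red in the panels from left to right. With total counts only the grey points of Eed, Suz12, Cbx8 and Smarca2 in the left panel lie to the right of 0.

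Of the 5 PRC2 genes, the 2 that encode its alternative catalytic subunits rose at the first step. Ezh2, the methyltransferase typical of dividing cells, had 13.5, 13.9 and 17.7 CPM in early replicates 1 to 3, 20.1, 21.1 and 21.0 in intermediate, 27.2, 31.4 and 34.0 in full and 28.1, 26.3 and 28.2 in BEC. Every intermediate library was above every early one and every full library above every intermediate one, while full and BEC overlapped. Its log2 fold changes were 0.46 (SE 0.12, edgeR adjusted p 0.00631) and 0.57 (SE 0.12, edgeR adjusted p 0.00161). Ezh1, its relative that is also present in resting cells, had group means of 36.2, 46.0, 54.2 and 64.3 CPM. It rose at the first step (log2 fold change 0.34, edgeR adjusted p 0.0157), and the second step was not called (0.24, edgeR adjusted p 0.0937). Eed and Suz12, which the enzyme needs to be active, and Jarid2, which helps bring it to DNA, were not called at any of the 3 comparisons of neighbouring groups, and Jarid2 was called higher in BEC than in early. Eed had 33.0 ± 0.694 CPM in early and 26.8 ± 1.09 in full (SD, n = 3, as for all such values of CPM), and was called lower in full than in early (log2 fold change -0.30, edgeR adjusted p 0.0157), a direction that turned with total counts only (0.57) and a call also lost with upper-quartile factors, with no filter and without full replicate 2. Suz12 ranged from 46.1 to 66.8 CPM over all 12 libraries.

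Of the 7 PRC1 genes, 5 rose at the first step (Rnf2, Bmi1, Cbx2, Cbx6 and Cbx7). Cbx6, a CBX subunit that reads the PRC2 mark, had 2.06, 5.82 and 4.29 CPM in early replicates 1 to 3, 113, 118 and 90.2 in intermediate, 230, 247 and 201 in full, and 292, 330 and 343 in BEC. No group overlapped its neighbour, and every intermediate library was above every early one. The log2 fold changes were 4.74 (SE 0.24, edgeR adjusted p 4.35e-09) and 1.08 (SE 0.19, edgeR adjusted p 0.000483). BEC against full gave 0.51 (SE 0.19), which missed the threshold (edgeR adjusted p 0.0742) and passed with the replicate block (edgeR adjusted p 0.0216). Npcd, annotated as a transcript that shares 5.31% of the Cbx6 exon bases, had at most 2 counts in any library.

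Cbx7, another CBX reader, had 25.9, 18.7 and 15.1 CPM in early, 60.4, 47.9 and 34.4 in intermediate, 66.0, 61.7 and 50.2 in full, and 65.7, 73.1 and 78.2 in BEC. All intermediate libraries were above all early ones, while intermediate and full overlapped. The first step gave a log2 fold change of 1.25 (SE 0.21, edgeR adjusted p 0.000201). Cbx8, which belongs to the same family, had 12.9 to 17.2 CPM in early and 9.68 to 10.6 in intermediate. Its log2 fold change of -0.63 missed the threshold (SE 0.25, edgeR adjusted p 0.0504), passed once replicate number was a block (-0.61, edgeR adjusted p 0.0191), and was 0.04 with total counts only. Cbx2 rose at the first step (0.78, SE 0.16, edgeR adjusted p 0.00105), from 11.2 ± 1.72 to 19.3 ± 3.20 CPM. In full it had 25.5 ± 1.43 CPM and in BEC 18.3 ± 2.75, a fall of 0.48 on the log2 scale (SE 0.15, edgeR adjusted p 0.0375) whose call was lost without any one of 5 of the 6 libraries compared.

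Rnf2, the main ubiquitin ligase, went up from a mean of 34.0 ± 3.89 CPM to one of 58.6 ± 2.88 between early and intermediate (0.79 on the log2 scale, SE 0.10, edgeR adjusted p 1e-05). It was lower in BEC at 42.1 ± 1.62 than in full at 53.1 ± 2.19 (-0.33, SE 0.09, edgeR adjusted p 0.0186), a call lost without any one of 4 libraries. Bmi1, its partner, rose at the first step (log2 fold change 0.97, SE 0.12, edgeR adjusted p 9.43e-06), from 47.2 ± 3.26 to 92.2 ± 5.93 CPM. Ring1, the ligase related to Rnf2, stayed between 29.5 and 41.5 CPM in all 12 libraries and was called at none of the 3 comparisons. Among 23 other Polycomb genes, all of them tested, 13 rose and 1 fell at the first step. Phc1, a PRC1 scaffold that forms polymers, rose to 29.0 ± 1.99 CPM, having been at 6.56 ± 0.583 in early (2.14, SE 0.12, edgeR adjusted p 6.56e-09). Rybp and Pcgf2 rose by 1.03 and 0.97. At the second step 5 rose and 1 fell, with Phf19, a PRC2 accessory gene, at 2.02 (SE 0.43), Phc1 at 0.59 and Kdm2b at 0.41. Between BEC and full 2 were lower in BEC, Aebp2 (-0.38) and Pcgf3 (-0.37).

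Among the DNA methylation genes, Tet1, which oxidises methylcytosine, had 0 counts in each of the 3 early libraries, then 2.89, 3.62 and 2.94 CPM in intermediate, 9.999, 14.4 and 12.2 in full and 13.2, 13.3 and 12.9 in BEC. Neither step had overlapping libraries, while full and BEC overlapped. A count of 0 allows up to 3 counts per library, or 0.273 CPM in the early library where that floor was highest, so Tet1 was at least 11.5-fold higher in intermediate, at least 44.8-fold higher in full and at least 48.1-fold higher in BEC. The intermediate libraries held 46, 66 and 52 counts of Tet1 and so met the filter without the full ones. The second step gave a log2 fold change of 1.95 (SE 0.19, edgeR adjusted p 8.65e-06). Tet2 and Tet3, which carry out the same reaction, were present in early at 30.0 ± 1.41 and 47.8 ± 2.89 CPM and rose at the first step by 0.46 (SE 0.15, edgeR adjusted p 0.0223) and 0.47 (SE 0.12, edgeR adjusted p 0.00419). Per length of transcript Tet1 remained the lowest of the 3 in BEC, at 0.849 RPKM (CPM divided by exon length in kilobases) against 3.13 for Tet2 and 4.62 for Tet3.

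Dnmt1, the methyltransferase that copies methylation after replication, had 48.3, 46.5 and 56.0 CPM in early, 62.4, 58.8 and 58.1 in intermediate, 107, 98.6 and 100.4 in full and 88.1, 96.7 and 109.7 in BEC. All full libraries were above all intermediate ones, and the lowest intermediate library was close to the highest early one. The log2 fold changes were 0.25 (SE 0.10, edgeR adjusted p 0.048), a call lost in DESeq2 and without any one of 9 of the libraries, and 0.77 (SE 0.10, edgeR adjusted p 2.96e-05). Dnmt3a, which sets methylation anew, rose by 0.62 (SE 0.11, edgeR adjusted p 0.000315) and by 0.36 (SE 0.11, edgeR adjusted p 0.0155), the second call lost without intermediate replicate 1 or full replicate 2 or 3. Dnmt3b, its relative, was low at 3.80 ± 0.412 CPM in early and 5.84 ± 0.615 in BEC and was called at none of the 3 comparisons.

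Of 12 other DNA methylation genes, 11 were tested, and Dnmt3l had at most 1 count in any library. At the first step 5 rose and 1 fell, with Mbd4 at 1.48 (SE 0.20) and Uhrf2 at 0.51. At the second step 5 rose and 1 fell. Uhrf1, which brings Dnmt1 to new DNA, was at 7.91 ± 1.69 CPM in intermediate and 53.2 ± 4.57 in full (2.75, SE 0.49, edgeR adjusted p 0.000473), Hells, a helicase needed for methylation, from 5.93 ± 0.654 to 21.4 ± 1.02 CPM (1.85, SE 0.32, edgeR adjusted p 0.000435), and Mbd4 by 0.94. Zbtb38 was the 1 gene of the list called between BEC and full, higher in BEC by 0.62 (SE 0.10).

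Cell cycle genes are given beside Ezh2, Dnmt1, Uhrf1 and Hells, which are known to be higher in dividing cells. Of a list of 20, 13 were called lower in intermediate than in early (list median -1.51 on the log2 scale) and 20 higher in full than in intermediate (list median 2.58). Ezh2 and Dnmt1 were called higher at the first step, Dnmt1 with the unsteady call given above, and at the second all 4 genes were called higher as well. The summed level of the list was 246, 215 and 498 CPM in early, 233, 223 and 248 in intermediate, 736, 737 and 773 in full, and 669, 665 and 828 in BEC. Early replicates 1 and 2 lay in or near the intermediate range, and early replicate 3 stood apart in this sum and had 26.1 CPM of Uhrf1 against 3.48 and 5.91 in the other early libraries. Ezh2 in that library was 17.7 CPM against 13.5 and 13.9. The part of cell division in the levels of these 4 genes was not tested.

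**Figure D3:**
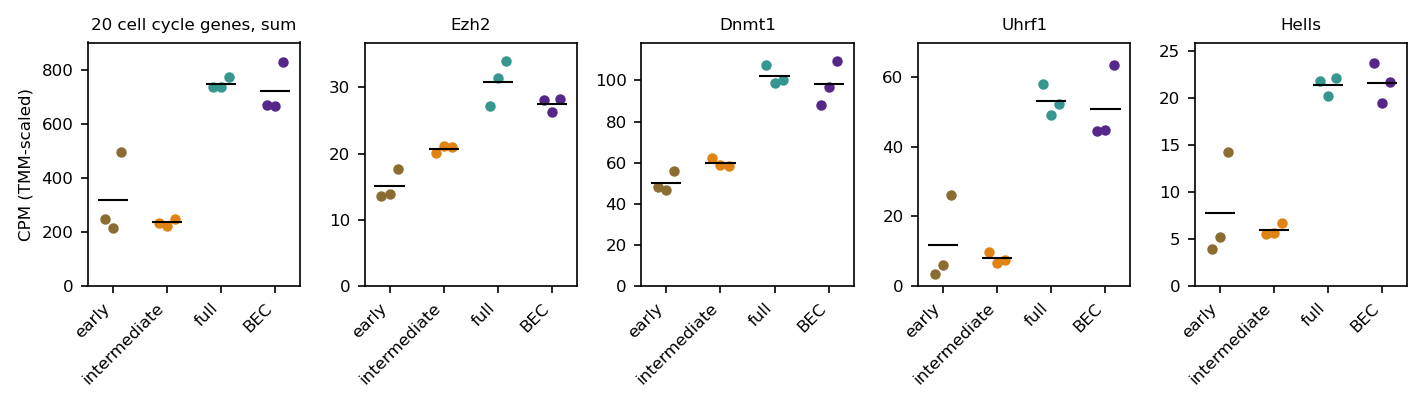
Summed CPM of 20 cell cycle genes and CPM of Ezh2, Dnmt1, Uhrf1 and Hells in each library (points) with the group mean (line). The sum, Uhrf1 and Hells are low in intermediate and high in full and BEC, with early replicate 3 above the other early libraries, while Ezh2 is already above early in all 3 intermediate libraries.

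The promoter windows of these genes were searched for the letters bound by E2F, the factor family that times replication genes. Windows from RefSeq on GRCm38.p6 ran from 250 bases before to 50 after the start site, and 42 of the 48 members had at least 1, for 53 windows. The cores searched on both strands were TTTCCCGC and TTTGGCGC, each of which itself contains a CpG. Of the member windows 9.43% held one, in 5 genes, against 1.565% of 32851 windows of all genes and 22.2% of 18 windows of the cell cycle list. The windows differ in base composition, with a median of 30 CpG sites in member windows, 7 in all windows and 25 in cell cycle windows. Binding of E2F was not measured, and its part in these values was not tested. All 5 matches are shown, with 10 bases on each side where the window has them, on the strand of the gene and the core in capitals. Suz12, which was called at none of the 3 comparisons, holds one too.
Ezh2 (chr6:47595010-47595037, minus strand): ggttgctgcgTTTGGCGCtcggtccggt
Dnmt1 (chr9:20952574-20952600, minus strand): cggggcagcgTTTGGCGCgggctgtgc
Suz12 (chr11:79992877-79992904, plus strand): gacccctcatTTTCCCGCgaattcagtt
Arid1a (chr4:133754023-133754050, minus strand): ccctccctccTTTCCCGCcccctccccc
Smarcd1 (chr15:99702146-99702173, plus strand): tcagcacgccTTTCCCGCtagtcgcccc

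Cbx6 and Tet1 had the largest first-step rises, and their 250 bases before the start site are shown with each CpG in capitals, on the strand of the gene. The Cbx6 stretch held 20 CpG sites and the Tet1 stretch 15, and neither window held an E2F core. Methylation of these bases was not measured.
Cbx6 (chr15:79834334-79834583, minus strand): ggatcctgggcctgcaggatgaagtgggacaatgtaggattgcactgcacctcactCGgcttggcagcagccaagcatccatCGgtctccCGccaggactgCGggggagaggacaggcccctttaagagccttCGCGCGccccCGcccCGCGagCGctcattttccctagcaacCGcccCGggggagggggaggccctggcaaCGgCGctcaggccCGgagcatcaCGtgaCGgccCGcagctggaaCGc
Tet1 (chr10:62887325-62887574, minus strand): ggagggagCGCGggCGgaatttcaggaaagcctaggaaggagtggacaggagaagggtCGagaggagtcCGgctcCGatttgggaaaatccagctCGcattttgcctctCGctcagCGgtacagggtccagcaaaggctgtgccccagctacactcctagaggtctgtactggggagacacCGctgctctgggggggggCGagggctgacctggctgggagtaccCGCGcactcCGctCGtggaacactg

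Of the 7 histone methylation enzymes, 6 were called higher at the first step, where 28.7% of all genes were. Kmt2c was not called there (0.18, edgeR adjusted p 0.289). Kmt2a, a methyltransferase that marks active promoters, had 56.7, 73.8 and 64.9 CPM in early, 148, 152 and 151 in intermediate, 208, 234 and 257 in full and 223, 231 and 230 in BEC. Neither the first nor the second step had overlapping libraries. The log2 fold changes were 1.21 (SE 0.11, edgeR adjusted p 4.99e-07) and 0.63 (SE 0.10, edgeR adjusted p 0.000265). Of its relatives, Kmt2d rose at the first step by 0.40 (SE 0.12, edgeR adjusted p 0.0134), and Kmt2c was called at the second (0.39, SE 0.14, edgeR adjusted p 0.038), a call lost without any one of 5 libraries. The replicate block added Kmt2d (0.30, edgeR adjusted p 0.00702), Kdm5a (0.27, edgeR adjusted p 0.0181) and Kdm1a (0.24, edgeR adjusted p 0.0286) at the second step, and Kmt2c between BEC and full (0.37, edgeR adjusted p 0.0171).

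Kdm1a, the demethylase that works with CoREST and NuRD to remove marks of active enhancers, had 50.5, 38.3 and 41.6 CPM in early, 113, 108 and 106 in intermediate, 136, 128 and 123 in full and 108, 105 and 96.0 in BEC. Levels were highest in full, and the BEC libraries lay below all full libraries. The first step gave 1.33 (SE 0.10, edgeR adjusted p 1.55e-07), and BEC against full gave -0.32 (SE 0.10, edgeR adjusted p 0.0308), a call lost without any one of 5 libraries. Kdm5b, which erases the mark that Kmt2a and its relatives place, had 35.4, 33.8 and 32.9 CPM in early, 76.6, 74.1 and 80.6 in intermediate, 82.6, 85.5 and 88.0 in full and 90.1, 82.2 and 77.4 in BEC. Its rise took place at the first step (1.18, SE 0.08, edgeR adjusted p 6.94e-08), and the second was not called (0.15, SE 0.08). Kdm5a and Kdm6b, the latter a demethylase that removes the PRC2 mark, rose at the first step by 0.76 (SE 0.14) and 0.71 (SE 0.16).

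Of 24 other methyltransferase genes, 12 rose and 3 fell at the first step, led by Setd7 (0.90), Ash2l (0.68) and Nsd2 (0.63), and 5 rose and 1 fell at the second, led by Suv39h1 (0.55), Nsd2 (0.40) and Kmt5c (0.32). Of 12 other demethylase genes tested, 9 rose and 1 fell at the first step, led by Kdm3a (0.85), Kdm7a (0.69) and Kdm3b (0.68). At the second step 2 rose, Kdm3b (0.29) and Kdm6a (0.22), and Kdm1b, the relative of Kdm1a, fell by 0.60 on the log2 scale (SE 0.14, edgeR adjusted p 0.00417), from 43.5 ± 6.59 to 28.7 ± 4.82 CPM. Kdm4c was higher in BEC than in full (0.39).

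In the SWI/SNF complexes, 9 of 12 subunits rose at the first step, among them all 3 genes of the Smarcd family, whose products replace each other in the complex. Smarcd1 had 16.9, 16.7 and 13.8 CPM in early, 46.0, 45.9 and 35.7 in intermediate, 57.4, 52.8 and 51.8 in full and 43.7, 39.6 and 39.3 in BEC. Each group stood clear of its neighbour, and BEC lay between early and full. The log2 fold changes were 1.42 (SE 0.12, edgeR adjusted p 4.11e-07), 0.35 (SE 0.11, edgeR adjusted p 0.0266) and, for BEC against full, -0.40 (SE 0.11, edgeR adjusted p 0.0207), and the call at the second step and that for BEC were each lost without any one of 3 libraries. Smarcd3 had 3.16, 5.09 and 3.80 CPM in early, 13.3, 14.7 and 8.89 in intermediate, 18.7, 21.0 and 14.3 in full and 15.7, 22.7 and 23.1 in BEC. Early lay below every other library, and intermediate and full overlapped. The first step gave 1.62 (SE 0.26, edgeR adjusted p 0.000112) and the second 0.55 (SE 0.22, edgeR adjusted p 0.0642, and 0.0258 with the replicate block). Exons of Chpf2 on the opposite strand share 48.2% of the Smarcd3 exon bases, and the strand setting of the counting was not stated, so reads of the pair may be mixed or dropped. Chpf2 itself had 287 to 757 counts in early and 462 to 770 in full.

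Smarcd2, the third of the family, was the most abundant of them in early at 32.1 RPKM against 3.93 for Smarcd1 and 0.785 for Smarcd3. It rose by 0.25 at the first step (SE 0.10, edgeR adjusted p 0.0432), a call lost in DESeq2 and without any one of 6 libraries, and had 31.7 RPKM in BEC, where Smarcd1 had 10.2 and Smarcd3 4.00.

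Of the ATPases, Smarca4 had 147 ± 13.6 CPM in early, 161 ± 7.73 in intermediate, 184 ± 5.13 in full and 182 ± 12.3 in BEC, and no step was called, though the second passed with the replicate block (0.20, edgeR adjusted p 0.0397). Smarca2, the other ATPase, had 152, 216 and 238 CPM in early, 150, 183 and 211 in intermediate, 144, 148 and 159 in full and 126, 134 and 141 in BEC. Early, intermediate and full overlapped, and BEC lay below full. It was called lower in full than in early (-0.43, SE 0.15, edgeR adjusted p 0.0215) and in BEC than in early (-0.60, SE 0.15, edgeR adjusted p 0.0028) on the TMM scale, while with total counts only both values were above 0 (0.44 and 0.27). The call against early in full was also lost with upper-quartile factors and without early replicate 2 or 3 or full replicate 1 or 2. Core subunits Smarcc1 and Smarcb1 rose at the first step by 0.66 (SE 0.08) and 0.35 (SE 0.10), and Smarcc1 at the second by 0.23 (SE 0.08), a call lost with no filter and without any one of 5 libraries. Smarcc2 was called at none of the 3 comparisons. Arid1b, Arid2, Pbrm1 and Arid1a rose by 0.90, 0.63, 0.55 and 0.43 at the first step, and Arid1b and Arid2 by 0.26 and 0.32 at the second. The second-step call of Arid1b was lost with no filter and without any one of 6 libraries, and that of Arid2 without intermediate replicate 2 or full replicate 3. At that step the replicate block added Arid1a (0.30, edgeR adjusted p 0.00282). Of 13 other SWI/SNF genes tested, 5 rose and 1 fell at the first step, led by Smarce1 (0.71), Bicra (0.53) and Bcl7a (0.52), and at the second Ss18 rose (0.28) and Brd7 fell by 0.28 on the log2 scale.

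Of the 11 acetylation and NuRD genes, 7 rose at the first step (Hdac1, Hdac2, Hdac3, Hdac5, Hdac7, Chd4 and Ep300). Hdac4, Hdac5, Hdac7 and Hdac9 are related deacetylases that shuttle between nucleus and cytoplasm. Hdac7 had 15.4, 20.2 and 7.69 CPM in early, 145, 131 and 110 in intermediate, 201, 194 and 179 in full and 156, 185 and 193 in BEC. The early libraries were far below all others, and full and BEC overlapped. The first step gave 3.16 (SE 0.24, edgeR adjusted p 1.56e-07), and the second 0.58 (SE 0.21, edgeR adjusted p 0.0449), a call lost without any one of 7 libraries. Hdac7 is also known from endothelial cells. Of 7 endothelial markers tested, 1 was called lower and 6 were not called between intermediate and early, and the part of such cells in the Hdac7 values was not tested. Hdac5 rose at the first step by 0.88 (SE 0.13, edgeR adjusted p 8.17e-05), and Hdac4 had 24.4 to 35.0 CPM in all libraries and was called at none of the 3 comparisons.

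Hdac9 was close to the floor of 3 counts. It had 0, 0 and 0.0809 CPM in early, 0.126, 0.110 and 0 in intermediate, 0.511, 0.357 and 0.394 in full and 1.49, 1.58 and 1.55 in BEC. Full libraries were above intermediate ones and BEC above full, on summed counts of 1, 4, 29 and 99 in the 4 groups. The ratio of full to intermediate was 5.46 (95% interval 1.92 to 21.4, counting error only), and the call at this step was lost without intermediate replicate 3. As Hdac9 passed the filter through the groups where it was higher, its calls are a description and no p is given. The summed level of macrophage markers was also higher in full than in intermediate and higher again in BEC, while early and intermediate overlapped. Of 8 macrophage markers tested, 1 was called higher in full than in intermediate and 7 were not called. In BEC against full, 3 were called higher and 5 were not called. Their part in the Hdac9 values was not tested.

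Hdac1, a catalytic subunit of NuRD and other repressor complexes, rose at each of the 3 comparisons, from 44.8 ± 1.20 CPM in early to 62.7 ± 1.72, 74.7 ± 4.39 and 93.2 ± 4.70. The log2 fold changes were 0.48 (SE 0.08, edgeR adjusted p 0.000139), 0.25 (SE 0.08, edgeR adjusted p 0.0173) and 0.32 (SE 0.08, edgeR adjusted p 0.00766). The second was lost without intermediate replicate 1, full replicate 1 or full replicate 2, the third without full replicate 3, and both with no filter on low counts. Hdac2, its partner, and Hdac3, the deacetylase of the NCoR complex, rose at the first step by 0.62 (SE 0.09) and 0.46 (SE 0.10). Chd4, the NuRD ATPase, was the member with the highest level per length in every group, 33.1 RPKM in early and 58.1 in BEC, and rose at the first step by 0.47 (SE 0.08, edgeR adjusted p 0.000349). Its second step was not called (0.21, edgeR adjusted p 0.0646) and passed with the replicate block (edgeR adjusted p 0.0494). The acetyltransferase Ep300 rose at the first step by 0.37 (SE 0.14, edgeR adjusted p 0.0436), a call lost in DESeq2 and without any one of 8 libraries, and its relative Crebbp was not called (0.28, SE 0.13, edgeR adjusted p 0.0932) but passed with the replicate block (0.28, edgeR adjusted p 0.037). Sirt1 stayed between 19.8 and 28.5 CPM and was called at none of the 3 comparisons.

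Of 11 other acetyltransferase genes, 6 rose and 1 fell at the first step, led by Kat6a (0.70), Ncoa1 (0.59) and Kat5 (0.48), and Kat6a (0.40) and Kat6b (0.32) rose at the second. Ncoa1, a coactivator of nuclear receptors, was lower in BEC than in full (-0.54, SE 0.07, edgeR adjusted p 0.000113), at 52.7 ± 0.810 against 76.5 ± 2.499 CPM. Of 21 other deacetylase and corepressor genes, 8 rose and 6 fell at the first step. Of the 6 sirtuins among them, 4 fell, 1 rose and Sirt4 was not called (0.29). Sirt3, a mitochondrial deacetylase, fell by 1.35 on the log2 scale (SE 0.17, edgeR adjusted p 1.33e-05), from 70.9 ± 8.47 to 27.8 ± 3.79 CPM, Sirt5, Sirt7 and Sirt2 fell by 0.82, 0.45 and 0.38, and Sirt6 rose by 1.19 (SE 0.17, edgeR adjusted p 4.55e-05), from 8.85 ± 1.31 to 20.3 ± 3.83 CPM. At the second step 2 of this list rose and 3 fell, with Sirt3 at -0.99, Sirt7 at -0.50 and Gatad2b at 0.29. Between BEC and full Mta1 was lower in BEC (-0.37) and Sirt7 higher (0.24). Over all 115 tested genes of the same machinery that are no members, 58 (50.4%) rose and 14 (12.2%) fell at the first step (median 0.28), where 28.7% and 25.7% of all genes did. At the second 22 (19.1%) rose, close to the 20.8% of all genes, and 8 (6.96%) fell against 19.8% (median 0.10). Between BEC and full 3 were higher and 4 lower in BEC (2.61% and 3.48% against 10.7% and 10.6% of all genes, median 0.01).

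**Figure D4:**
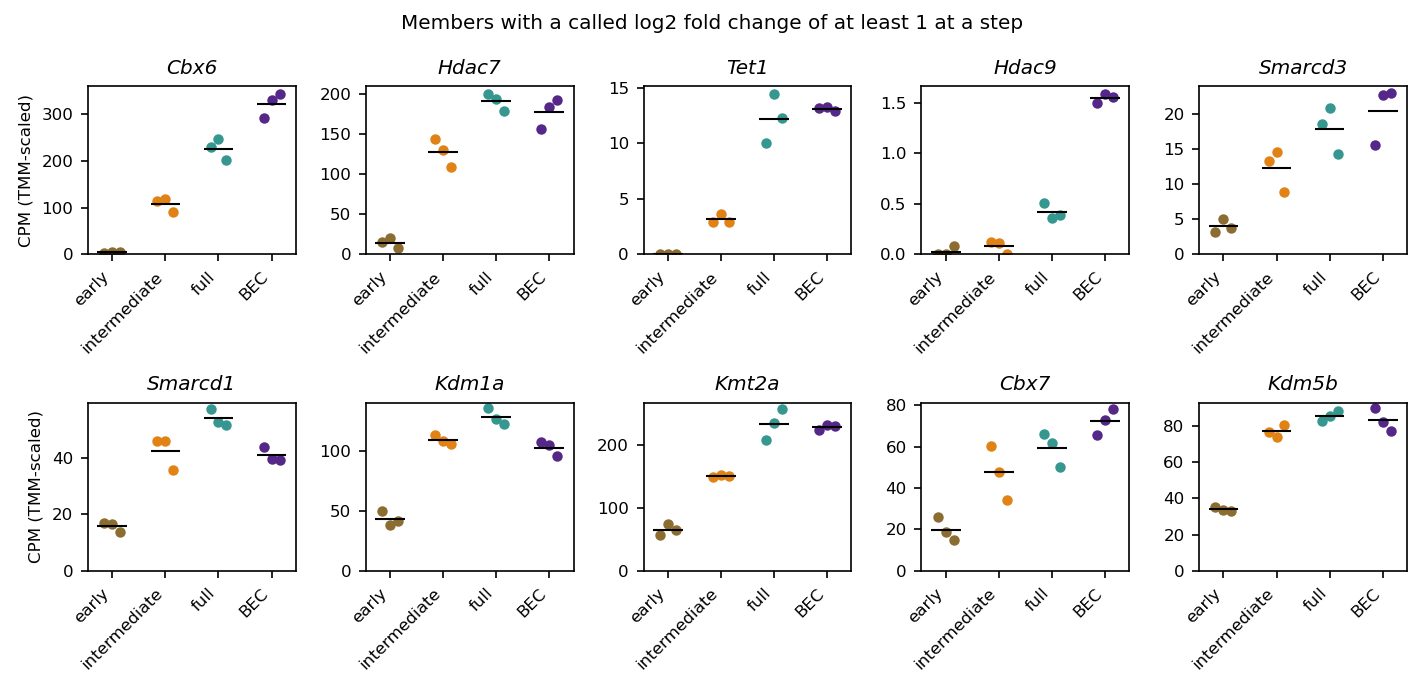
TMM-scaled CPM in each library (points) and the group mean (line) for the 10 members with a called log2 fold change of at least 1 in a comparison of neighbouring groups, each panel on its own axis from 0. Cbx6 reaches 292 to 343 CPM in BEC, Smarcd1 and Kdm1a are highest in full, and Hdac9 is at most 1.58 CPM.

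The first step was compared with the second in a contrast chosen after the data were seen, which tests whether the change from intermediate to full was smaller or larger than that from early to intermediate. For 14 members (13 without Tet1) the test called the first change larger: Cbx6, Hdac7, Tet1, Kdm1a, Smarcd1, Kdm5b, Rnf2, Hdac5, Bmi1, Arid1b, Kmt2a, Hdac2, Pbrm1 and Smarcc1. Of all genes tested, 10.8% had a second change below the first by this test and 5.64% one above it. Cbx6 gave a difference of -3.66 (SE 0.34), Kdm1a -1.09 (SE 0.17) and Kdm5b -1.03 (SE 0.14), with edgeR adjusted p-values of 1.09e-05, 0.000655 and 0.00021. The fitted difference of Tet1 depends on the prior count, as its early counts are 0, so its call is not used. The test called 0 of 48 members with a larger second change in edgeR, and 1 in DESeq2, with the replicate block, with median-of-ratios or upper-quartile factors and with a mean of at least 50 counts. At an unadjusted p under 0.05 there was 1, Dnmt1, with a difference of 0.52 (SE 0.17, edgeR adjusted p 0.0533, unadjusted p 0.00904). The count of 14 was 9 with median-of-ratios factors, 33 with total counts only, 8 without intermediate replicate 1, 7 without intermediate replicate 2, and 9 without full replicate 1 or full replicate 2.

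Ratios of related members within a library do not depend on the scaling between libraries. Of 13 ratios compared at each of the 3 comparisons, 39 in all, 17 had groups that did not overlap, 7 at the first step, 6 at the second and 4 between BEC and full. Of single genes, whose groups also move with the scaling, 58.7%, 55% and 39.6% did not overlap at these comparisons (36, 30 and 15 of the 48 members), so the ratios' counts are not above those of genes in general. With 3 against 3 libraries the smallest 2-sided exact permutation p is 0.1, and adjusted over the 39 tests the smallest was 0.229, so none passed. At the first step the log2 ratio of Smarcd3 to Smarcd2 was higher in intermediate by 1.34, at -3.51 ± 0.455 against -4.85 ± 0.217, and that of Smarcd1 to Smarcd2 by 1.16, at -1.70 ± 0.300 against -2.86 ± 0.224 (SD, n = 3). Smarcc1 to Smarcc2 (0.58), Arid1b to Arid1a (0.47) and Tet1 to Tet2 (5.81, a value set by the prior count of 0.5 that stands for Tet1 in early) were also higher in intermediate. Cbx8 to Cbx7 (-1.87) and Cbx2 to Cbx7 (-0.47, and -0.28 without early replicate 3) were lower.

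At the second step, the ratio of the ATPases Smarca4 to Smarca2 was higher in full by 0.46, at 0.30 ± 0.046 against -0.16 ± 0.182, and higher again in BEC by 0.15. Smarcd3 to Smarcd2 (0.69), Smarcd1 to Smarcd2 (0.48), Tet1 to Tet2 (1.58), Ep300 to Crebbp (0.15) and Smarcc1 to Smarcc2 (0.08) were higher in full as well. Without intermediate replicate 3 Smarcd3 to Smarcd2 was 0.43 and Smarcd1 to Smarcd2 0.32, and without intermediate replicate 2 Smarcc1 to Smarcc2 was 0.0496. In BEC against full, Cbx2 to Cbx7 (-0.78), Ezh2 to Ezh1 (-0.41) and Hdac2 to Hdac1 (-0.36) were lower. The other 22 comparisons had overlapping groups.

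**Figure D5:**
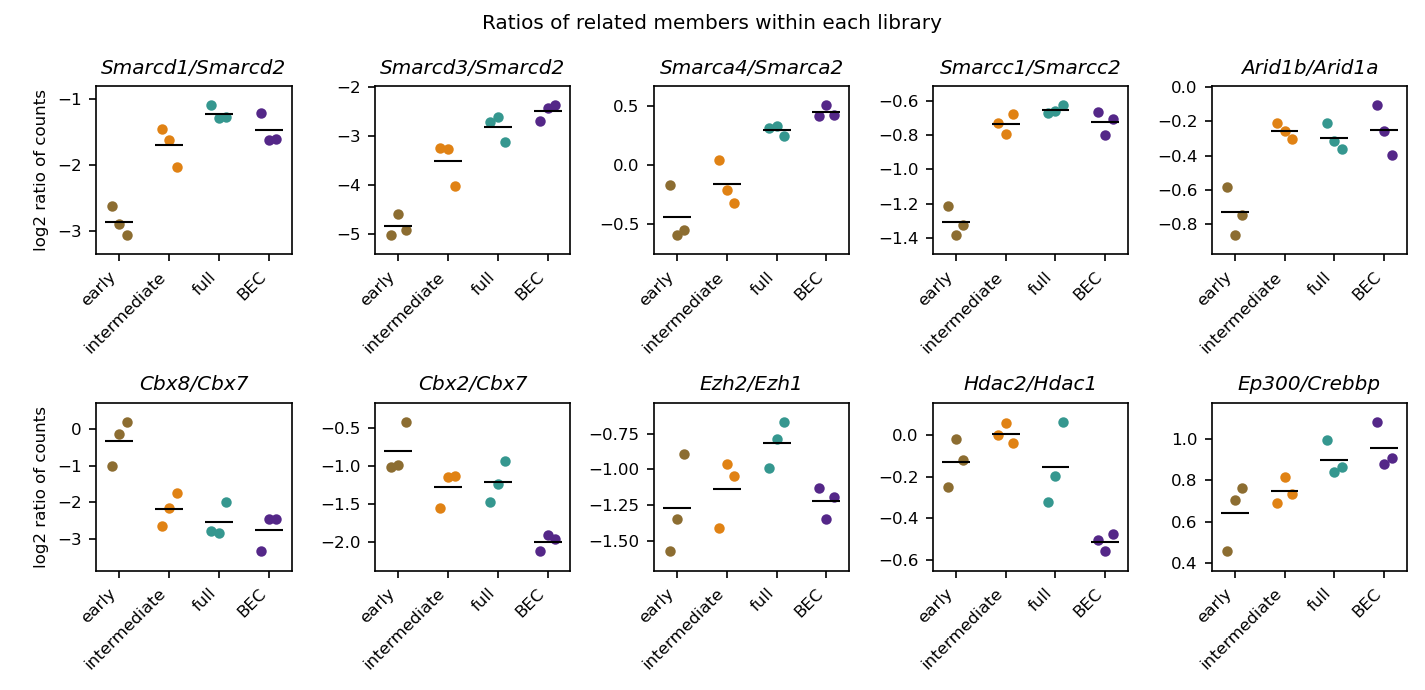
Log2 ratio of the counts of related members in each library (points) with the group mean (line), for 10 of the 13 pairs. Smarcd1 and Smarcd3 stand higher relative to Smarcd2 in every intermediate, full and BEC library than in any early one, and the ratio of Smarca4 to Smarca2 is higher in all full and BEC libraries than in any intermediate one. Counts are not divided by length, so the side of 0 says nothing of which gene of a pair is the more abundant.

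Over all 4 groups, 40 of the 48 members differed by edgeR's F test (38 of 46 without Tet1 and Hdac9), where 75.6% of all genes did. Against early, full had 41 members higher (39 without both) and 3 lower on the TMM scale, where 39.1% of all genes were higher and 32.1% lower. BEC against early had 40 higher (38 without both) and 1 lower, where 40% were higher and 33% lower. BEC against intermediate gave 20 higher (18 without both) and 3 lower, where 26.3% were higher and 26.2% lower. With total counts only these counts were 47 and 0, 46 and 0, and 36 and 1, where 81.2%, 82% and 54.1% of all genes were called and 81.8%, 80.3% and 66.5% of those calls were higher. These comparisons share libraries with the 3 given above.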

How the data were processed

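RNA of 12 sorted samples was sequenced. The authors deposited raw counts per gene, the values used here. The submitters' processing notes name STAR 2.7.10b, featureCounts 2.0.1, DESeq2 and GRCm39; the annotation and strand setting are not given in the sources used here. A second deposited table, these counts divided by 1 factor per sample, was not used. Of 53599 genes, 16210 passed filterByExpr and were fitted in edgeR 4.0.16 (R 4.3.3) with TMM factors, 1 coefficient per group and the quasi-likelihood test, with Benjamini-Hochberg adjustment and a threshold of 0.05. DESeq2 1.42.0, other scalings and filters, a replicate block and leaving out each library were alternatives. RPKM used union exon lengths of GENCODE M21 and compare levels between genes only. Ratios used a prior count of 0.5. Intervals and floors cover counting error only.

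The members and lists were chosen with earlier results of these data known. All members are described by role, with values in every library for those called with a log2 fold change of at least 1 between neighbouring groups; Ezh2, Dnmt1 and Smarca2 were given so after their values were seen. Of the other lists, up to 3 genes with the largest called change are named per comparison, except 1 that is not reported here. Same-numbered samples deviated together in the 3 comparisons of neighbouring groups (correlations 0.121 to 0.293, 0.137 to 0.322 and 0.170 to 0.257), so the replicate block is given there where it changes a call. On simulated counts for intermediate against early (15723 genes), 58% of 100 genes changed by a log2 of 1 and 86% of 100 changed by 2 were recovered. Of 151 calls 4.64% were false. Only these genes differed in the simulation, as many up as down, while 54.4% of genes tested were called in the data. The share of false calls therefore need not hold for the data.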

Additional observations from a re-analysis of the deposited data

How the results depend on the processing

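Leaving out 1 library at a time gave 0 to 2 members called lower in intermediate than early, 7 to 17 higher in full than intermediate, 1 to 4 higher and 0 to 4 lower in BEC than full, 0 to 3 lower in full than early, 1 to 2 lower in BEC than early and 1 to 3 lower in BEC than intermediate. For the difference between the steps it gave 1676 to 2863 genes (2665 with all libraries), 0 to 1 members with a larger second step and 7 to 14 with a larger first step. In intermediate against early, 1 member was lower with median-of-ratios factors, no filter, a mean of at least 50 counts, the replicate block, only the 6 libraries compared, and DESeq2. In full against intermediate, 37 were higher with total counts only, 27 with upper-quartile factors and 22 in DESeq2. In BEC against full, 1 was higher with a mean of at least 50 counts, 4 with the replicate block and 5 with only the 6 libraries compared. With total counts only, 0 were lower in full and 0 in BEC against early, 36 were higher and 1 lower in BEC against intermediate, and the difference between the steps called 6139 genes and 33 members with a larger first step. Upper-quartile factors gave 0 lower in full against early and 1 lower in BEC against intermediate. The replicate block gave 42 higher and 3 lower in full against early, 40 and 2 in BEC against early and 26 and 3 in BEC against intermediate, comparisons in which at least 1 pair of same-numbered samples had a correlation under 0.1. For the difference between the steps, median-of-ratios factors gave 9 members with a larger first step, and 1 with a larger second step, as did upper-quartile factors, a mean of at least 50 counts, the replicate block and DESeq2. Directions turned with total counts only for the members listed here, among others. In intermediate against early these were Eed 0.53, Suz12 0.58, Cbx8 0.0371 and Smarca2 0.50. In full against intermediate they were Eed 0.0367, Ring1 0.0221, Rnf2 0.0579 and Smarcd2 0.0695. In full against early they were Eed 0.57, Cbx8 0.24, Smarca2 0.44 and Ring1 0.84. In BEC against early they were Smarca2 0.27, Eed 0.66 and Smarcd2 0.85. The direction of Sirt1 in intermediate against early also turned (lowest and highest with 1 library left out -0.00036 and 0.157). In full against intermediate that of Cbx8 turned without intermediate replicate 1 (-0.0279) and full replicate 3 (-0.165, highest 0.119), and that of Hdac4 turned too (-0.0416 to 0.18). For none of these was the cause tested. Under the replicate block, 9274, 7300 and 4096 genes were called in the 3 comparisons of neighbouring groups. The difference between the steps, with its alternatives, was chosen after seeing the data. Total counts per library were of like size, and depth limits Hdac9 and Tet1, which had few or no counts in early.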

Other observations

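Of 15 genes known as Polycomb targets in other tissues, 5 passed the filter on low counts, in part through the groups where they were higher. Cdkn2b, a cell cycle inhibitor, had group means of 0.688, 1.74, 5.34 and 22.6 CPM in early, intermediate, full and BEC, with fitted log2 fold changes of 1.31, 1.62 and 2.08 between neighbours, given as a description. Its neighbour Cdkn2a had 0 counts in all early and intermediate libraries, 15 to 38 in full and 130 to 205 in BEC. Gata6, a transcription factor of gut and bile duct development, had 43.5, 109, 154 and 157 CPM. Cdkn1c, another inhibitor, rose from early to intermediate by 1.28 and was lower in BEC than in full (-1.23). Hoxa7, Hoxa10, Hoxa11, Hoxb13, Hoxd10, Hoxd13 and Olig2 were at 0 in all 12 libraries.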
